A study of Mus musculus with 10 samples.

Results

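The 10 genes described here, *Galnt1*, *Galnt2*, *Galnt3*, *Galnt4*, *Galnt6*, *Galnt7*, *Galnt10*, *Galnt11*, *Galnt12* and *Galnt18*, belong to the GALNT family of polypeptide N-acetylgalactosaminyltransferases. They were chosen by name among the 27024 named rows of the expression table. Rows were present for 9 of them, and *Galnt6* was not analysed here. RNA-seq was performed on bEnd.3 cells, a mouse brain endothelial line immortalised with polyoma middle T antigen, so that all samples stem from 1 cell line grown in culture. The cells were of wild-type genotype, and 5 samples received saline (replicates 1, 2, 3, 4 and 5) while 5 received 5 nM StcE (replicates 1, 2, 3, 5 and 6), both for 16 h. StcE is a bacterial protease that cuts mucin domains, the stretches of protein that carry dense O-glycans. The comparison asks whether the transcripts of the enzymes that build those O-glycans differed after mucin domains had been cut.

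GALNT enzymes reside in the Golgi apparatus and transfer N-acetylgalactosamine (GalNAc) from UDP-GalNAc to serine or threonine, the first step of mucin-type O-glycosylation. Some members act on bare peptide, and others prefer peptides that already carry a GalNAc and fill in the neighbouring sites. C1GALT1 then extends the GalNAc to core 1, on which sialyltransferases and B3GNT3 build further. Which sites are filled on a protein depends on which GALNT isoforms a cell expresses, and in endothelial cells these glycans form part of the glycocalyx.

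Expression is given as FPKM (fragments scaled to transcript length and library), as deposited. Whole fragments could be recovered from the FPKM, and each sample held 21859342 to 33140289 of them (21918326 to 29011314 in saline and 21859342 to 33140289 after StcE). A count of 0 allows up to 3 fragments, and in a transcript of 1 kb 3 fragments stand for 0.0857 to 0.131 FPKM across the samples. The endothelial identity of the cells was checked with 9 markers, whose mean FPKM over all samples ranged from 16.5 to 486. The highest means among 4 epithelial, 4 mural and fibroblast, 5 neural and 3 leukocyte markers with a row were 3.14 for *Acta2* and 1.58 for *Krt19*. The labels do not say whether the replicates came from separate cultures, so that p-values measure only the spread between these samples.

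The 9 members spanned more than 2 orders of magnitude in FPKM, and 1 isoform dominated. *Galnt1* was the most highly expressed, followed by *Galnt7*, *Galnt4*, *Galnt10*, *Galnt11*, *Galnt18* and *Galnt3*, with *Galnt2* and *Galnt12* lowest. This order was the same in both groups down to *Galnt3*. Neighbours in the order had ranges that did not overlap within a group, except for *Galnt11* and *Galnt18* in saline and for *Galnt2* and *Galnt12* in both groups. The mean of *Galnt1* was 5.59 times that of *Galnt7* in saline and 5.85 times after StcE.

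**Figure D1:**
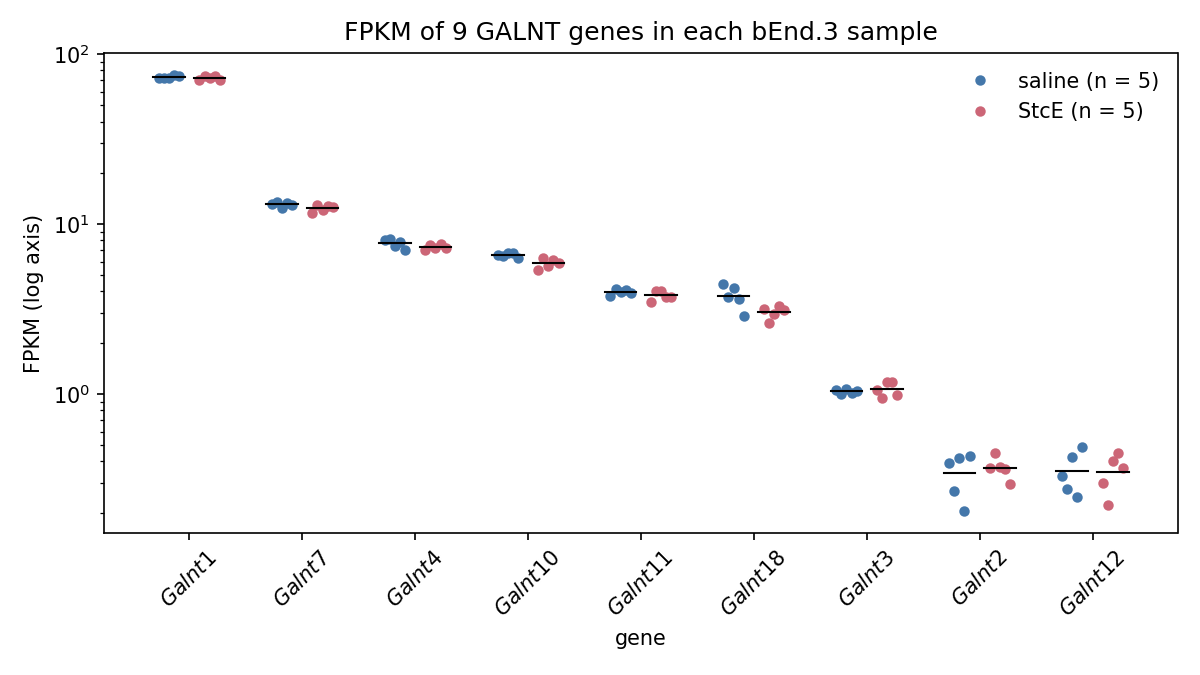
FPKM (log axis) of the 9 GALNT genes with a row, with 1 point per sample, 5 saline and 5 StcE, and black bars at the group means. *Galnt1* stands near 73 in both groups, and *Galnt2* and *Galnt12* lie below 0.5 in every sample.

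Among the enzymes that act on bare peptide, *Galnt1* encodes a broadly expressed isoform with many protein targets. On GRCm38 it lies on chromosome 18 at 24205344 to 24286818, on the plus strand. Its FPKM was 72.5, 72.1, 71.7, 75.3 and 74.3 in saline replicates 1 to 5. After StcE it was 70.3, 74.4, 71.9, 74.6 and 70.7 in replicates 1, 2, 3, 5 and 6. The groups overlapped along most of their range, with both the lowest value (70.3) in an StcE sample and the highest (75.3) in a saline sample. *Galnt1* ranked 689 of all 27024 named rows by mean FPKM, above 97.5% of them, and rested on 9126 to 14415 fragments per sample.

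*Galnt11*, whose enzyme glycosylates the receptor Notch1, lies on chromosome 5 at 25221904 to 25265918, on the plus strand. It was measured at an FPKM of 3.75, 4.13, 3.97, 4.06 and 3.91 in saline. In the StcE samples it stood at 3.49, 4.04, 4.03, 3.72 and 3.73. Values of both groups were interleaved, and 563 to 957 fragments lay behind each of them. *Galnt3*, whose enzyme protects the phosphate hormone FGF23 from cleavage, lies on chromosome 2 at 66082766 to 66124994, on the minus strand. It was close to an FPKM of 1 throughout, at 1.06, 1.00, 1.07, 1.02 and 1.03 in saline and at 1.06, 0.943, 1.17, 1.17 and 0.979 after StcE, from 102 to 179 fragments per sample. The StcE samples held both its highest and its lowest values.

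*Galnt2*, which elsewhere is a widely expressed isoform with targets in lipid metabolism, lies on chromosome 8 at 124231391 to 124345724, on the plus strand. Its FPKM was 0.392, 0.267, 0.421, 0.204 and 0.432 in saline and 0.367, 0.448, 0.370, 0.360 and 0.296 after StcE, from 20 to 55 fragments. This level is uncertain, because 3854 of its 4282 exon bases (90.0%) are shared on the same strand with the overlapping gene *Gm20388*, which was not analysed here. If no read in the shared bases had been counted, the same fragments over the remaining 428 bases would stand for an FPKM of 3.43 ± 1.02 in saline and 3.69 ± 0.539 after StcE (SD, n = 5 each). How reads in shared bases were treated is not given in the sources used here. The place of *Galnt2* in the order of levels is therefore uncertain, whereas the comparison between groups uses the same bases in every sample.

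Of the enzymes that prefer peptides already carrying GalNAc, *Galnt7* was the most abundant. It lies on chromosome 8 at 57523828 to 57653032, on the minus strand. Its FPKM was 13.2, 13.5, 12.5, 13.3 and 12.9 in saline. After StcE it was 11.5, 12.9, 12.0, 12.8 and 12.6, so that 1 saline sample (replicate 3) fell among the StcE values. *Galnt4* is a gene of 1 exon on chromosome 10 at 99108159 to 99113247, on the plus strand, and its enzyme glycosylates PSGL-1, a ligand of selectins. It was expressed at 8.01, 8.16, 7.42, 7.85 and 7.03 in saline and at 7.02, 7.55, 7.20, 7.59 and 7.18 after StcE. Saline replicates 3 and 5 lay within the StcE range. Exon sequence of *Poc1b* covers 8.25% of *Galnt4* on the same strand, too little to change its place in the order.

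*Galnt10* lies on chromosome 11 at 57645442 to 57787514, on the plus strand, and shares no exon sequence with another gene. Its FPKM was 6.53, 6.46, 6.73, 6.77 and 6.30 in saline. After StcE it was 5.38, 6.28, 5.62, 6.13 and 5.90. All 5 StcE samples were below all 5 saline samples, although the closest samples, at 6.28 and 6.30, were nearly equal. Each value rested on 755 to 1281 fragments. *Galnt12*, on chromosome 4 at 47091909 to 47123070 on the plus strand, was at the lower end of detection, with 13 to 36 fragments per sample. It was measured at 0.331, 0.276, 0.427, 0.248 and 0.486 in saline and at 0.297, 0.221, 0.403, 0.449 and 0.364 after StcE.

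*Galnt18*, on chromosome 7 at 111471661 to 111779977 on the minus strand, encodes a member of a divergent branch of the family with little or no transferase activity on peptides in vitro. In saline it was the most variable of the genes above an FPKM of 1, with 4.43, 3.69, 4.17, 3.62 and 2.86. After StcE it was 3.15, 2.61, 2.97, 3.29 and 3.11. Saline replicate 5 lay below 4 of the 5 StcE samples, and the other 4 saline samples lay above all of them. The coefficient of variation of *Galnt18* in saline was 16.0%, against 6.28% expected from the counting of its fragments, whereas *Galnt3*, with fewer fragments, varied by 2.87% against 9.21%. After StcE, *Galnt18* varied by 8.55% against 6.62% and *Galnt3* by 9.94% against 8.52%.

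**Figure D2:**
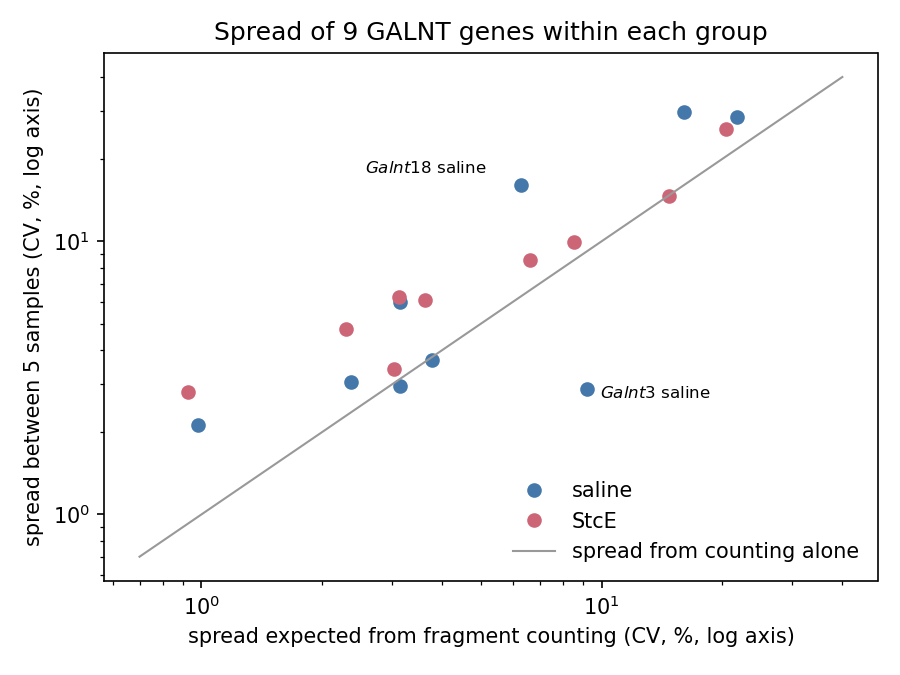
Coefficient of variation (CV) of FPKM between the 5 samples of a group against the CV expected from the number of recovered fragments, both in percent on log axes, with 1 point per gene and group. The grey line marks a spread from counting alone, above which *Galnt18* in saline stands at 16.0% and below which *Galnt3* in saline stands at 2.87%.

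Of 9 other GALNT family genes, 4 had rows and none reached a mean FPKM of 0.02. *Galnt13* had a mean of 0.00408 in saline and 0.0144 after StcE, *Galnt15* 0.0194 and 0.00458, *Galnt16* 0.002 and 0.00757, and *Galnt5* 0 and 0.00129. At most 6 fragments per sample lay behind these values, and no difference was detectable at this depth. The remaining 5 (*Galnt9*, *Galnt14*, *Galnt17*, *Galntl5* and *Galntl6*) were not analysed here.

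StcE was compared with saline in a limma fit over the 11062 genes whose FPKM averaged 1 or more, on log2(FPKM + 1), a scale that understates changes of low genes. Of the 7 members in this fit, *Galnt10* alone passed an adjusted p of 0.05, and it was lower after StcE, whereas 11.9% of all genes tested passed, 6.41% with lower and 5.52% with higher values. The share of members is thus close to that of all genes. The same gene was the 1 of 7 whose groups did not overlap, against 10.7% of all genes (5.8% with lower values). At an unadjusted limma p under 0.05 stood 3 of 7 (*Galnt7*, *Galnt10* and *Galnt18*), against 27.8% of all genes. Of the 7, 6 had a lower mean after StcE, as had 50.4% of all genes, and the median log2 fold change was -0.06 against -0.000663 over all genes tested. *Galnt2* and *Galnt12* were below the filter and were compared by permutation.

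**Figure D3:**
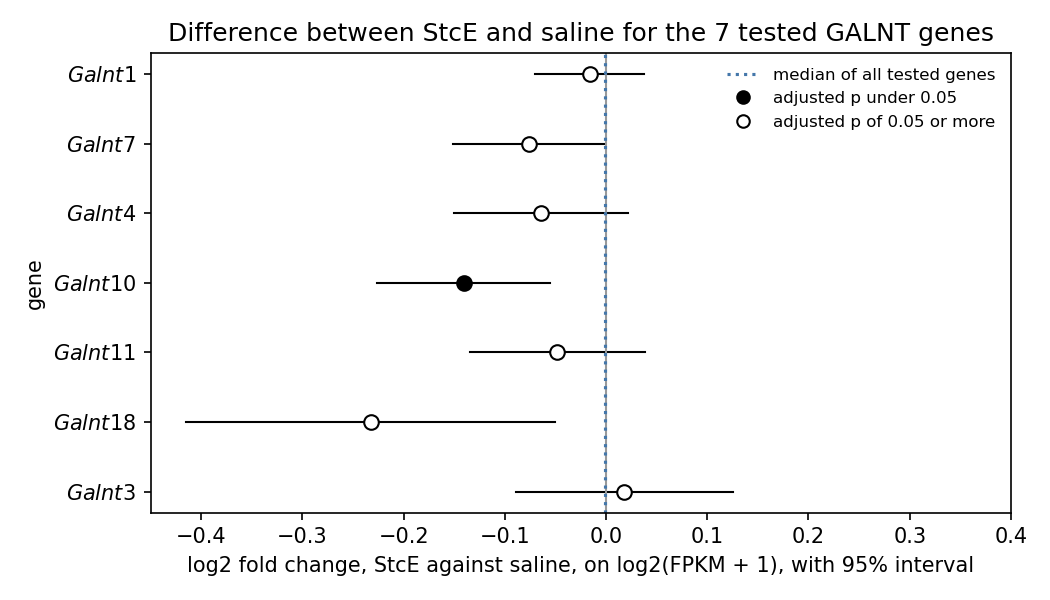
Log2 fold change of StcE against saline on log2(FPKM + 1) for the 7 tested GALNT genes, with 95% intervals from limma (n = 5 per group). *Galnt10* (filled, -0.14) is the 1 gene past an adjusted p of 0.05, the interval of *Galnt1* is the narrowest, and the dotted line marks the median of all tested genes.

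*Galnt10* fell from a mean FPKM of 6.56 ± 0.194 in saline to 5.86 ± 0.366 after StcE (SD, n = 5 each), a decrease of the mean by 10.6%. Its log2 fold change was -0.14 (SE 0.0388, 95% interval -0.23 to -0.06), with a Benjamini-Hochberg adjusted p of 0.0378 in limma. The exact two-sided permutation test gave p = 0.00794, the smallest that 5 against 5 samples allow. The call depended on single samples: with saline replicate 1, 2, 3 or 4 left out, the adjusted p from limma was 0.0743, 0.0581, 0.0820 and 0.0801, and with StcE replicate 1, 3 or 6 left out it was 0.0727, 0.0932 and 0.0581. The direction was lower after StcE under every one of the 21 alternative settings, and 10 of them kept the gene past the threshold. As the groups did not overlap, leaving out samples could not have reversed this direction. Median ratio scaling, among the 10, only repeated the main fit. Of 9 markers of the endothelial line, 5 passed the threshold with lower values after StcE and none with higher values (6.41% and 5.52% of all genes), and their summed FPKM was 1780.4 to 1928 in saline against 1682 to 1780.1 after StcE. Of these markers, 4 passed without StcE replicate 2, 3 without saline replicate 5 or StcE replicate 3 or 6, 2 without any one of the other 6 samples, 2 with no filter or with eBayes without trend, and 0 with the replicate block in limma, where 4 had an unadjusted p under 0.05. Their part in the *Galnt10* result was not tested, and in bulk RNA fewer expressing cells and less RNA per cell cannot be told apart.

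*Galnt18*, with means of 3.75 ± 0.602 and 3.03 ± 0.259, had the largest fold change of the 7 tested members, which did not pass the threshold. The log2 fold change was -0.23 (SE 0.0833, 95% interval -0.41 to -0.05), with an adjusted p of 0.0943 in limma, and the log2 ratio of the mean FPKM was -0.31. Its exact permutation p was 0.0397, without adjustment. A single library decided this call, since the adjusted p without saline replicate 5, the sample at 2.86, was 0.0132, with a log2 fold change of -0.31. The gene is therefore reported as not past the threshold in all 10 samples.

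**Figure D4:**
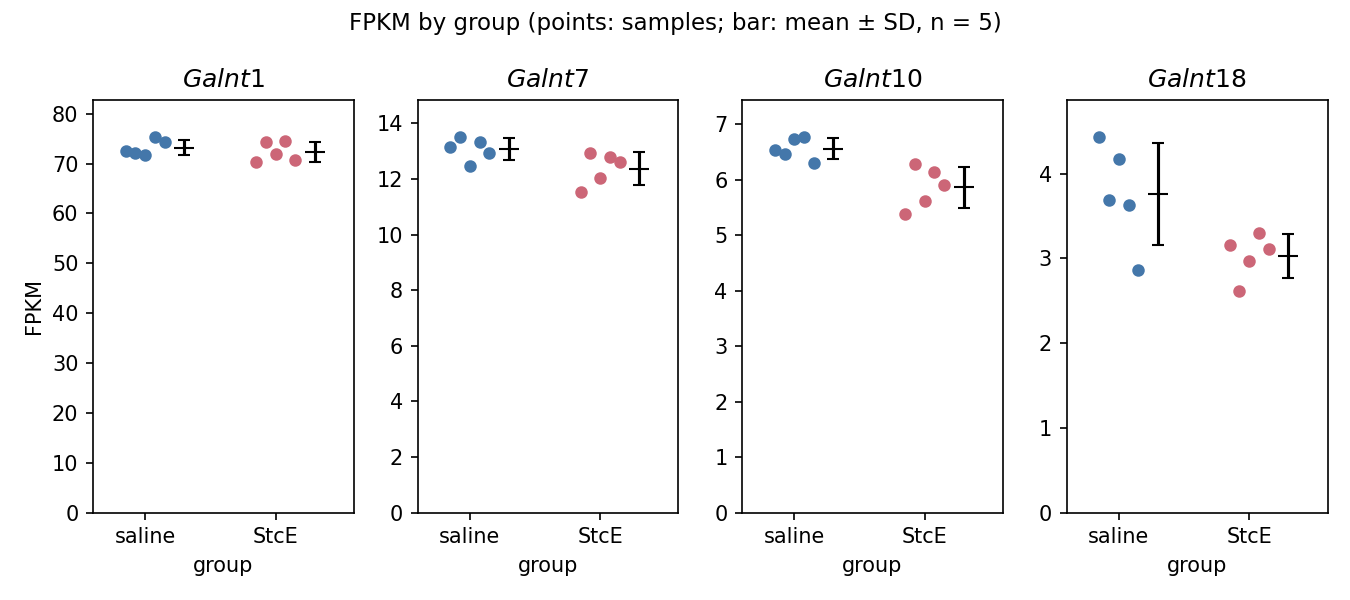
FPKM by group for *Galnt1*, *Galnt7*, *Galnt10* and *Galnt18*, each axis starting at 0, with 1 point per sample and bars at mean ± SD (n = 5). The groups are separate for *Galnt10* and overlap for the other genes, for *Galnt18* because of the lowest saline sample at 2.86.

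For *Galnt7* the mean went from 13.1 ± 0.399 to 12.4 ± 0.590, with a log2 fold change of -0.08 (95% interval -0.15 to -0.00076, adjusted p = 0.177 in limma). *Galnt4* stood at 7.69 ± 0.461 and 7.31 ± 0.248, with a log2 fold change of -0.06 (95% interval -0.15 to 0.02, adjusted p = 0.317). *Galnt11* stood at 3.96 ± 0.146 and 3.80 ± 0.231, with a log2 fold change of -0.05 (95% interval -0.13 to 0.04, adjusted p = 0.472). None of these 3 passed the threshold, and their intervals reach down to differences of -9.92%, -9.87% and -8.92% in FPKM + 1.

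The dominant isoform was measured most tightly. *Galnt1* had a mean of 73.2 ± 1.55 in saline and 72.4 ± 2.03 after StcE, with a log2 fold change of -0.02 (95% interval -0.07 to 0.04, adjusted p = 0.717 in limma), and this interval spans -4.73% to 2.65% in FPKM + 1. *Galnt3* had means of 1.04 ± 0.0298 and 1.06 ± 0.106 and a log2 fold change of 0.02 (95% interval -0.09 to 0.13, adjusted p = 0.849). In the exact permutation test, *Galnt2* (0.343 ± 0.102 and 0.368 ± 0.0538, p = 0.643) and *Galnt12* (0.353 ± 0.101 and 0.347 ± 0.0897, p = 0.921) showed no difference beyond the spread between samples, and at 13 to 55 fragments small differences were not detectable.

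The 9 genes were also compared by their share of the summed FPKM, a measure of the isoform mix within each sample. *Galnt2* entered at its deposited FPKM, so the shares and the sums that include it carry the uncertainty of its level. The sum was 110.0 ± 1.51 in saline and 106.5 ± 3.17 after StcE, and the groups overlapped. *Galnt1* made up 66.5 ± 0.937% of it in saline and 67.9 ± 0.408% after StcE, also with overlap. The share of *Galnt10* was 5.97 ± 0.166% in saline and 5.50 ± 0.209% after StcE, and it was the 1 share of 9 whose groups did not overlap. In FPKM, groups did not overlap for 10.7% of all genes tested. This share comes from the same *Galnt10* values as the comparison above and is not a separate result. By role, the bare-peptide enzymes *Galnt1*, *Galnt2*, *Galnt3* and *Galnt11* summed to 78.5 ± 1.52 and 77.6 ± 2.20, and the 4 enzymes that prefer glycosylated peptides to 27.7 ± 0.731 and 25.9 ± 1.18. The groups overlapped in both sums.

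**Figure D5:**
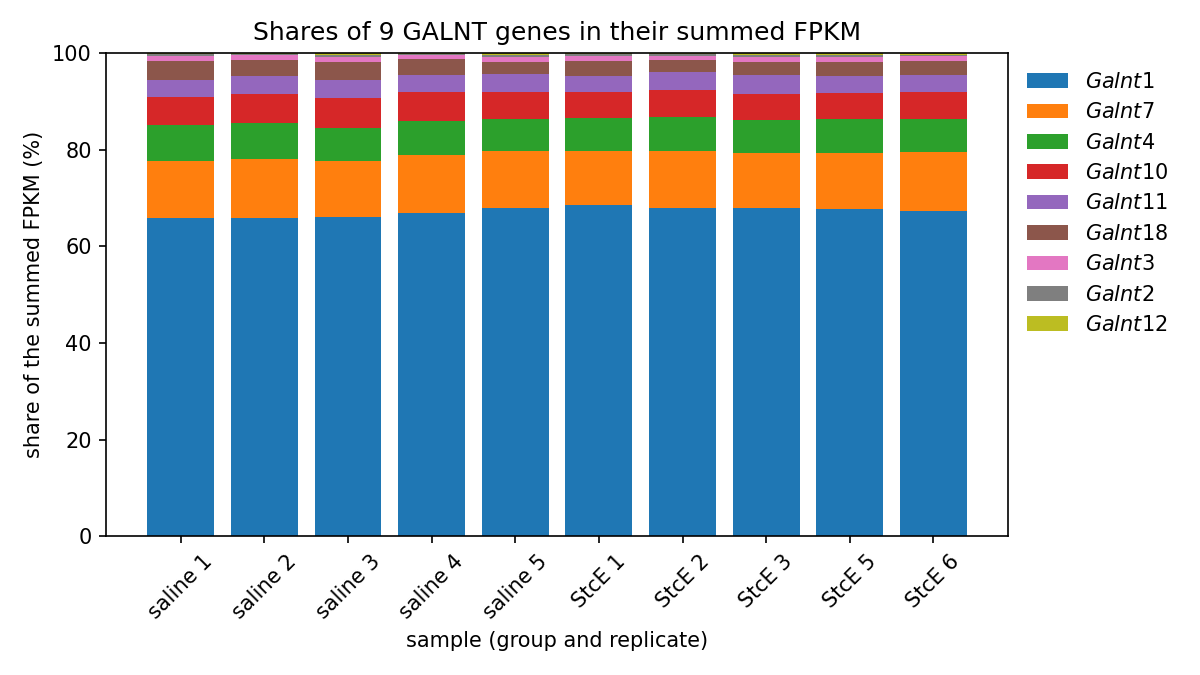
Share of each of 9 GALNT genes in their summed FPKM (percent), with 1 stacked bar per sample, 5 saline and 5 StcE. *Galnt1* takes 65.8% to 68.5% of every bar, and *Galnt18* has a larger share than *Galnt11* in saline replicates 1 and 3 only.

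The promoter sequence of *Galnt10*, the member past the threshold, is shown with that of *Galnt7*, the most abundant member of the same role. Both are the 250 bases before the RefSeq transcription start on GRCm38.p6, at chr11:57645192-57645441 on the plus strand for *Galnt10* and at chr8:57653056-57653305 on the minus strand for *Galnt7*, written in the direction of transcription. Capitals mark GC boxes (GGGCGG on either strand), the motif of Sp1-type factors.
Galnt10: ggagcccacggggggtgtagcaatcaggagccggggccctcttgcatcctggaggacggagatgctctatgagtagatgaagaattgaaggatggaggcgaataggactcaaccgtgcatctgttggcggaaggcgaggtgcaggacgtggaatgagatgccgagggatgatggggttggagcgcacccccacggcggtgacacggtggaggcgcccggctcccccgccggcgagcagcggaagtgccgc
Galnt7: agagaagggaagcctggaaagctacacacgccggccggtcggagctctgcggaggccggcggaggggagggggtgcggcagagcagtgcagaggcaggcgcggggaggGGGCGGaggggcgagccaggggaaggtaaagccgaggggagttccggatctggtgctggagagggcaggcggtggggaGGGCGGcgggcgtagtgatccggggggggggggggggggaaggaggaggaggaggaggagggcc
RefSeq windows were matched by symbol for 5 of the 10 genes. The *Galnt10* window had no GC box, a GC content of 64.4% and 20 CpG dinucleotides. The *Galnt7* window had 2 GC boxes, a GC content of 73.6% and 19 CpG dinucleotides. A GC box occurred in 32.74% of the 32851 windows of the same length, whose median GC content was 52.4% with 6 CpG dinucleotides. TATAAA (12.37% of windows) and CCAAT (33.85%) were in neither window on either strand. CCGGAA (12.03%), a longer form of the ETS motif, was in the *Galnt7* window once. The shorter GGAA, common to ETS motifs, stands in both printed windows and was not counted. These matches describe letters and are not evidence of binding.

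Of 13 enzymes that extend or cap the GalNAc, 6 were tested, and 2 of these had an unadjusted limma p under 0.05. Past the adjusted threshold, 1 was lower and none higher (6.41% and 5.52% of all genes). This was *St6galnac4*, which adds sialic acid to the GalNAc, with means of 6.35 ± 0.188 and 5.86 ± 0.170 and a log2 fold change of -0.10 (adjusted p = 0.0467 in limma), a call kept in 6 of 21 alternatives and in 1 of the 10 fits that left out a sample. *C1galt1* (6.69 in saline and 7.05 after StcE), its chaperone *C1galt1c1* (13.2 and 14.2) and *B3gnt3* (22.5 and 21.4) did not pass. Among 8 subunits of the COG complex, a tether that keeps glycosyltransferases in the Golgi, limma and limma's voom on fragments both called 0. In each, 1 subunit was under an unadjusted p of 0.05. Over all genes tested, limma called 11.9%, and 27.8% had an unadjusted p under 0.05.

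The other enzymes that attach a first O-linked sugar served as a comparison of the same kind, and 11 of 13 were tested. Of these, 7 of 11 had an unadjusted limma p under 0.05, against 27.8% of all genes. Past the adjusted threshold, 1 was lower and 2 were higher after StcE (6.41% and 5.52% of all genes). *Eogt*, which adds GlcNAc to EGF repeats, fell from 30.7 ± 0.837 to 27.0 ± 0.536 (log2 fold change -0.18, adjusted p = 0.000809 in limma). *Ogt*, the GlcNAc transferase of cytosol and nucleus, rose from 16.0 ± 0.403 to 19.1 ± 1.51 (log2 fold change 0.24, adjusted p = 0.00813). *Kdelc1*, the former symbol of *Poglut2*, a glucosyltransferase of EGF repeats, rose from 10.9 ± 0.486 to 11.9 ± 0.240 (log2 fold change 0.12, adjusted p = 0.0315), and 10 of 21 alternatives, among them 7 of 10 that left out a sample, lost this call. The median of this list was -0.07, beside -0.06 for the GALNT genes.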

How the data were processed

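Poly(A) RNA of 10 bEnd.3 samples was sequenced in pairs of 150-base reads. The authors deposited FPKM values per gene, normalised between samples. Their processing notes name HISAT2 2.0.5, featureCounts 1.5.0-p3 and DESeq2 1.32.0 on GRCm38, while the annotation release and the use of strand in counting are not given in the sources used here. A further 22874 rows were empty, and 12 names stood on more than 1 row. Groups came from the sample labels.

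Gene lengths and positions were taken from GENCODE vM21 (26704 rows matched). With them, 96.65% of values above 0 were whole fragments within 0.05 fragment. Floors cover counting error only, whereas the 95% intervals come from limma and reflect the spread between these samples. The 11062 genes whose FPKM averaged 1 or more entered a limma fit (version 3.58.1, R 4.3.3) of log2(FPKM + 1) on treatment, using lmFit and eBayes with trend. P-values were adjusted by Benjamini-Hochberg over this whole table. Genes below the filter were compared by exact two-sided permutation (Python 3.11.15). The procedure was tested on simulated data. Copies were searched with BLAST 2.17.0 (95% identity, 150 bases), and apart from *Gm20388* and *Poc1b* none was found. All members were named, as were genes of the other lists past the threshold. *C1galt1*, *C1galt1c1*, *B3gnt3*, *Acta2* and *Krt19* are outside this rule and were picked with their values in view. The members and lists were chosen with earlier results of these data known, and the results of some listed genes are not reported here. The alternatives were a pseudocount of 0.1, a mean minimum of 0.1, no filter, and upper quartile and median ratio scaling. Further alternatives were eBayes without trend, eBayes with trend and the robust option, voom on fragments, the replicate block and each sample left out. Total fragment scaling, an unblocked fit to the 8 samples of the block and the unshared length of *Galnt2* were added after seeing the data.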

Additional observations from a re-analysis of the deposited data

Results flagged for a closer look

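Of 54 groups of 5 samples examined for a single sample far from the others (Dixon's test at 95%, for which chance gives about 2.7), 1 was found, for *Eogt*. StcE replicate 6 was at an FPKM of 27.9 and the other 4 StcE samples were at 26.7 to 26.8. It remained below all 5 saline samples, which were at 30.0 or more. No group of a GALNT gene stood out in this way.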

How the results depend on the processing

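*Galnt10* was lower after StcE under all 21 alternatives, and its adjusted p in limma or voom ranged from 0.0213 to 0.211. Leaving out samples could not have reversed its direction, because its groups did not overlap, and median ratio scaling repeated the main fit. The number of members past the threshold was 0, against 1, with a mean minimum of 0.1, with no filter, with the replicate block and with the 8 samples of that fit without the block, where limma gave 3, 3, 2 and 2 members at an unadjusted p under 0.05. It ranged from 0 to 2 when 1 sample was left out. Over all genes, 801 passed with no filter and 349 with the replicate block, against 1320, and 793 to 1255 when 1 sample was left out, lowest without StcE replicate 3 and then saline replicate 1 (838). The 8 samples without the block gave 885. The number of samples and which samples were left out cannot be told apart here, and the cause of the loss was not tested. Same-numbered samples did not deviate together (correlations of -0.0966 to 0.0538), so the replicate block pairs numbers only. With it the adjusted p of *Galnt10* in limma was 0.211, and *Ogt* (0.107), *St6galnac4* and *Kdelc1* also missed the threshold, while *Eogt* passed. Under voom, the other method run, 1494 genes and the same 1 member passed.

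Directions changed only where differences were close to 0. *Galnt1* had a log2 fold change of 0.0025 with the block and in its 8 samples. With 1 sample left out, *Galnt3* ranged from -0.00094 to 0.039, and the difference in mean FPKM ranged from -0.0096 to 0.048 for *Galnt2* and from -0.033 to 0.027 for *Galnt12*. The 13 to 55 fragments per sample limit *Galnt2* and *Galnt12*.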
